A study of Mus musculus with 59 samples.

Results

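The 10 genes described here encode the ATPases and the regulatory subunits of the ISWI chromatin remodellers, 10 of 21896 protein-coding genes in the RefSeq table of the mouse genome build GRCm38.p6 (mm10). They were chosen by name: Smarca5, Smarca1, Baz1a, Baz1b, Baz2a, Bptf, Rsf1, Chrac1, Pole3 and Cecr2. A ChIP-seq peak was assigned to a gene when it lay inside the gene's span or within 10000 bp of it. This gave 501 of the 798096 peaks in 16 deposited lists, and joining peaks that overlap between lists gave 81 of 105010 distinct sites.

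ISWI remodellers use ATP to slide and space nucleosomes, and each complex joins 1 ATPase to subunits that decide where it works. Smarca5 encodes SMARCA5 (SNF2H), which is the ATPase of most of these complexes, and Smarca1 encodes its close relative SNF2L. In mouse embryonic stem cells (ESCs) SMARCA5 is known to order the nucleosomes around binding sites of CTCF, the zinc-finger protein that anchors chromatin loops. CTCF peaks at the remodeller genes therefore show where 1 partner of that pair sits at Smarca5, the gene of the other. They also show where it sits at the genes of SNF2L and of the ISWI subunits.

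CTCF was mapped by ChIP-seq in mouse embryonic fibroblasts (MEFs) of the OG2 strain, which carry an Oct4-GFP reporter, during reprogramming by OSKM (Oct4, Sox2, Klf4 and c-Myc), and in ESCs of the E14Tg2a line. The 59 samples were 31 ChIP samples and 28 input samples, and each of 16 groups had 1 deposited list, 15 for CTCF and 1 for SMARCA5. A difference between lists therefore has no replicate check, no test was run, and the intervals given are exact 95% binomial (Clopper-Pearson) intervals, which take in counting error alone. The sequencing depth of the libraries is unknown here, and peak lists do not measure mRNA, so neither the level of Ctcf or Smarca5 nor the labelled cell types could be checked.

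On day 10 the groups were OSKM with added Ctcf and an shRNA against Smarca5 (1 ChIP sample), OSKM with added Ctcf (2 samples) and OSKM alone (2 samples), all delivered by retrovirus. The sorted cells were made with inducible OSKM from a lentivirus and carried an shRNA against Ctcf (shCtcf) or against luciferase (shLuc). These pairs were day 0 cells (2 samples each), Thy1+ cells of days 3 and 9 (2 each), SSEA1- Thy1- cells of days 6 and 9 (2 each), SSEA1+ cells of days 6 and 9 (2 each) and Oct4-GFP+ cells of day 12 (3 each). Thy1 is displayed on fibroblasts, and SSEA1 appears on cells approaching pluripotency. The ESC groups, at passages 20 to 24, were Smarca5 knockout (KO) cells (1 sample), wild-type (WT) cells (1 sample) and cells overexpressing Flag- and biotin-tagged SMARCA5 that was pulled down on streptavidin (2 samples). The KO was made with a Cas9 nickase and paired guides in the first or the second exon of Smarca5, and whether it is 1 clone is not stated in the labels. The tagged cells also carried the biotin ligase BirA and were picked as single clones. For the day 3 Thy1+ samples other labels contradict the title on which list they belong to and which shRNA they received. The Thy1+ lists are used here under the titles, and only some counts over populations are also given without them.

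The promoters that overlap a SMARCA5 peak are shown first, since they differ in which CTCF lists hold them. The RefSeq table of promoters (GRCm38.p6) spans 250 bases before to 50 after each start and held 6 of the 10 genes: Smarca5, Smarca1, Baz1b, Baz2a, Bptf and Pole3. Baz1a, Rsf1, Chrac1 and Cecr2 have no entry. Of these 6 promoters, 5 overlapped a SMARCA5 peak, against 17.5% of 32815 distinct promoters in the table, and 4 overlapped a CTCF peak in KO ESCs, against 16.6%. In WT ESCs 3 promoters overlapped a CTCF peak (background 15.2%). The Pole3 promoter (chr4:62524965-62525264, minus strand) held CTCF in KO ESCs and in no other CTCF list. The Smarca5 promoter (chr8:80739410-80739709, minus strand) held CTCF in both ESC lists and in none of the 13 reprogramming lists. The Bptf promoter (chr11:107132098-107132397, minus strand) held CTCF in all 15 lists. The Baz2a promoter (chr10:128092533-128092832, plus strand) held CTCF in the 3 day 10 lists and both ESC lists. This Baz2a window lies inside the gene's span, which starts at chr10:128091370. At the start of the span, site 3 (chr10:128090947-128091372) was held by 14 of 15 CTCF lists, all but day 0 shCtcf, and not by the SMARCA5 list. The Baz1b promoter (chr5:135187073-135187372, plus strand) held SMARCA5 without CTCF. The 5 sequences are printed 5′ to 3′ on the strand of the gene, and capitals mark a match to CAGGNGGC, a part of the CTCF motif, on either strand.
Pole3: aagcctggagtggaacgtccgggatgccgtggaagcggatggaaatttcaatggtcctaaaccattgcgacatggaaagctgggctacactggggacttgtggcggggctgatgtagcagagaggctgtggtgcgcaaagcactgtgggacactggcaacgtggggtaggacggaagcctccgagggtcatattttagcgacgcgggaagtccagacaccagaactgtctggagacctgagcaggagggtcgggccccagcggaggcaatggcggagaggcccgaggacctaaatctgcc
Smarca5: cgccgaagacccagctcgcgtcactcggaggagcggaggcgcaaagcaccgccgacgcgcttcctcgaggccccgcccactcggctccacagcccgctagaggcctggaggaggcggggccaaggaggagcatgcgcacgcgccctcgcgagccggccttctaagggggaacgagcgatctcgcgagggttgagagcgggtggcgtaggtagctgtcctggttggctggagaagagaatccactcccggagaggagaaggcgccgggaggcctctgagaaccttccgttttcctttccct
Bptf: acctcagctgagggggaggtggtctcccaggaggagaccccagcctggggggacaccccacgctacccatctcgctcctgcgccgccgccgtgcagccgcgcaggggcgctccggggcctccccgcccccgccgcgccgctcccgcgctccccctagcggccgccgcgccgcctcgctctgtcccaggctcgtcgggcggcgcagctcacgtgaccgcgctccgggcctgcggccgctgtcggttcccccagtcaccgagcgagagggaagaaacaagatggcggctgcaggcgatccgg
Baz2a: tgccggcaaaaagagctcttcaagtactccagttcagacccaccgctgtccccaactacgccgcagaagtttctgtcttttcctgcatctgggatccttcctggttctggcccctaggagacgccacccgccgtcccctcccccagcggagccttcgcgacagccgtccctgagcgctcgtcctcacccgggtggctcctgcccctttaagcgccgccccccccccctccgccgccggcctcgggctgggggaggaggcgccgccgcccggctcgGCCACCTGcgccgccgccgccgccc
Baz1b: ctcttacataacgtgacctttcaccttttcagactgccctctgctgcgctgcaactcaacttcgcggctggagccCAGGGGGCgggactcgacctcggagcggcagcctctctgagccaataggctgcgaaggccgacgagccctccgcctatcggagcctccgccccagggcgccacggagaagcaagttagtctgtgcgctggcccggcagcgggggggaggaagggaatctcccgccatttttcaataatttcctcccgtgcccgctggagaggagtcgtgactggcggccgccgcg
CAGGNGGC was searched on both strands and occurred in 9.71% of 32851 promoters of this length, and here in Baz1b and Baz2a. The overlapping string AGGGGGC occurred in 10.6% of promoters, and here in Baz1b. The Bptf promoter, with a CTCF peak in every list, had no match to CAGGNGGC in this window, and the Baz1b promoter had a match and no CTCF peak. Only these fixed strings were searched, so other forms of the CTCF motif would be missed, and no match does not mean no motif. The GC content of these promoters was 59.7% for Pole3, 64.7% for Baz1b, 67.7% for Smarca5, 71.0% for Baz2a and 76.3% for Bptf. The Smarca1 promoter, with a GC content of 58.7%, overlapped no peak of any list.

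Peaks near the 10 genes numbered between 10 (day 0 shCtcf) and 70 (KO ESCs) per list, and the shortest lists held the fewest and the longest the most. The shortest lists were those of day 0, with 23600 peaks under shCtcf and 28838 under shLuc, and the longest were those of KO ESCs (89567) and WT ESCs (83173). The 10 genes took between 0.0424% and 0.0809% of each list. Every gene had a CTCF peak in both ESC lists, and 5 of 10 had one in each day 0 list. The same share over all protein-coding genes was not counted. Their median number of peaks per 100 kb was 6.14 in KO and 5.57 in WT ESCs. At day 0 that median was 0.959 under shCtcf and 1.59 under shLuc, so genes in general differed in the same direction. Of the 81 sites, 8 were held by all 15 CTCF lists (9.88%, background 15.8%), 16 by both ESC lists and no other CTCF list (19.8%, background 14.9%), and 10 by KO ESCs alone (12.3%, background 7.1%). No site was held by WT ESCs alone (background 0.74%), and 8 were held by reprogramming lists and by no ESC list (9.88%, background 9.93%).

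**Figure D1:**
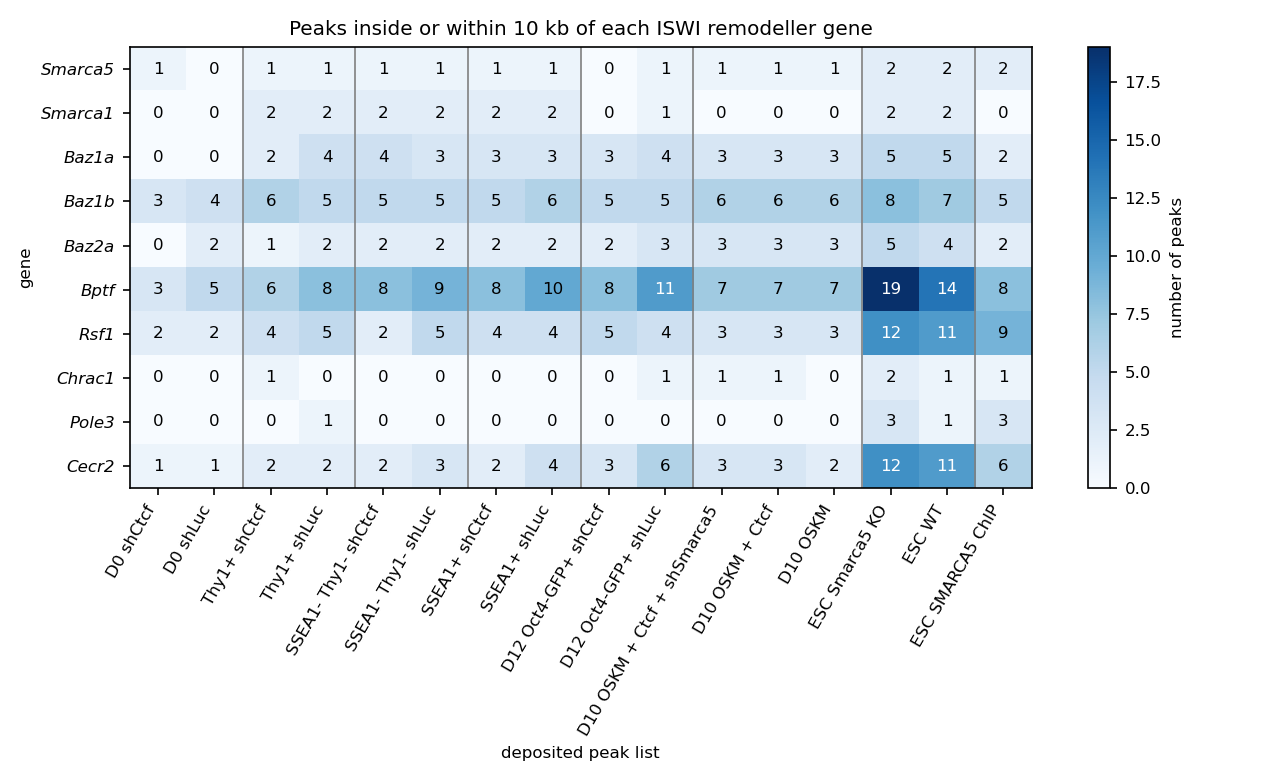
Number of peaks inside or within 10 kb of each of the 10 genes (rows) in each of the 16 deposited lists (columns, with the perturbed list left of its control). Bptf has the highest count in every ESC CTCF list (19 in KO and 14 in WT ESCs), while Smarca5, Smarca1 and Chrac1 never exceed 2. Counts are not scaled to gene length.

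Smarca5, the gene of the main ISWI ATPase (chr8:80699943-80739459), had 2 sites. The site inside the gene, 10873 bp from its low-coordinate end (site 1, chr8:80710580-80711052), was held by 13 of 15 CTCF lists and by the SMARCA5 list. It was absent from the day 12 shCtcf list and from the day 0 shLuc list, and was present in the day 12 shLuc and day 0 shCtcf lists. Knockdown lists thus differed from their controls in opposite directions at the 2 ends of the time course. The site at the promoter (site 2, chr8:80739386-80739785) was found in KO ESCs, WT ESCs and the SMARCA5 list only. The gene's own ablation left both ESC sites in the list, with 2 peaks in KO and 2 in WT ESCs.

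Over the 15 CTCF lists, the genes whose peak numbers were most like those of Smarca5 were Cdh26, Hapln4 and Lyve1. Their summed absolute difference was 0, and 5 genes in all were at 0, each with 15 peaks in total. Such a match is easily reached by a gene with 0 to 2 peaks per list.

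Smarca1, the gene of SNF2L (chrX:47809370-47892613), had 2 sites, 1 inside the gene (chrX:47820547-47820957) and 1 beyond its high-coordinate end (chrX:47897370-47897812). Neither overlapped a SMARCA5 peak, and it was the 1 gene of 10 with no SMARCA5 peak. Both sites were present in the shCtcf and shLuc lists of Thy1+, SSEA1- Thy1- and SSEA1+ cells and in both ESC lists. Day 0 and day 10 lists held neither. At day 12 the shCtcf list held 0 peaks and the shLuc list 1, the site beyond the high-coordinate end. The genes most like Smarca1 over the 15 lists were Supt7l, Psma8 and Serpind1, with a summed difference of 2 peaks, which 4 genes shared.

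Baz1a encodes ACF1, which pairs with SMARCA5 in the ACF and CHRAC complexes that space nucleosomes. It had 7 sites over chr12:54892989-55014371 and no peak at day 0 in either list. From Thy1+ cells on, the lists held 2 to 4 peaks, and both ESC lists held 5. The site 4283 bp from the low-coordinate end (site 2, chr12:54897072-54897471) was absent under shCtcf and present under shLuc in Thy1+ and SSEA1- Thy1- cells, and present in both day 12 lists. Site 5 (chr12:54981968-54982367) was absent under shCtcf in Thy1+ cells and present under shCtcf alone in SSEA1- Thy1- cells. Site 4 (chr12:54948982-54949381) was present under shCtcf alone in SSEA1- Thy1- cells, in both day 12 lists, and in no ESC list. Site 1 (chr12:54890404-54890803), outside the low-coordinate end, was absent under shCtcf at day 12.

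Baz1b encodes WSTF, which joins SMARCA5 in the WICH complex at replication sites. It had 10 sites over chr5:135187323-135246131, and 3 of them were held by all 15 CTCF lists and by the SMARCA5 list, for example chr5:135191643-135192085. In KO ESCs it had 8 peaks and in WT ESCs 7, and the added site lay inside the gene (chr5:135238833-135239232). Site 7 (chr5:135225885-135226298) was absent under shCtcf and present under shLuc at day 0 and at day 12, and was held by the other 11 CTCF lists. Site 6 (chr5:135210258-135210657) was present under shCtcf alone in Thy1+ and day 12 cells and under shLuc alone in SSEA1+ cells, and in no other list.

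Baz2a encodes TIP5, the partner of SMARCA5 in the NoRC complex that silences ribosomal DNA. It had 6 sites over chr10:128091370-128129303, none of them in all 15 lists. At day 0 the shCtcf list held 0 peaks and the shLuc list 2, at chr10:128086411-128086810 and chr10:128090951-128091350. Of these, site 2 was also absent under shCtcf in Thy1+ cells. Site 3, at the low-coordinate end where the span of this plus-strand gene starts, was present in each of the 8 sorted lists. Its peak inside the gene at chr10:128099503-128099902 was absent under shCtcf at day 12 and present under shLuc there and in both ESC lists. KO ESCs added a peak beyond the high-coordinate end (chr10:128132873-128133272), which gave 5 peaks in KO and 4 in WT ESCs.

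Bptf, the largest subunit of the NURF complex and a reader of methylated histone H3, had 20 sites over chr11:107033081-107132147. It had 19 CTCF peaks in KO ESCs and 14 in WT ESCs. Per 100 kb of the widened span this was 16 peaks in KO and 11.8 in WT ESCs, against medians over all protein-coding genes of 6.14 in KO and 5.57 in WT ESCs. The 5 added peaks were at chr11:107046971-107047370, chr11:107051034-107051433, chr11:107098280-107098679, chr11:107099393-107099792 and chr11:107121059-107121458. All 5 lay inside the gene, and none was in any other CTCF list or in the SMARCA5 list. The promoter site (chr11:107131990-107132471) and the site at chr11:107105214-107105623 were held by all 15 CTCF lists and by the SMARCA5 list.

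With Ctcf shRNA, Bptf had fewer peaks than in the control list in each population, and in each the whole shCtcf list was also shorter than its control. Bptf had 3 peaks under shCtcf and 5 under shLuc at day 0, 6 and 8 in Thy1+ cells, 8 and 9 in SSEA1- Thy1- cells, 8 and 10 in SSEA1+ cells, and 8 and 11 at day 12, where the whole lists held 35803 and 53043. Site 13 (chr11:107119955-107120354) was absent from all 4 shCtcf lists of sorted cells and present in all 4 shLuc lists, in the 3 day 10 lists and in both ESC lists. Site 2 inside the gene (chr11:107044339-107044738) and site 19 beyond its high-coordinate end (chr11:107138611-107139010) were absent under shCtcf at day 0 and present in all other CTCF lists. Site 7 (chr11:107092542-107092941) was absent under shCtcf in Thy1+ cells, site 20 (chr11:107140347-107140746) in SSEA1- Thy1- cells and site 17 (chr11:107132933-107133332) in SSEA1+ cells. At day 12 sites 11 (chr11:107108880-107109279) and 12 (chr11:107113097-107113496) were absent under shCtcf. Site 15 (chr11:107125411-107125810) was found under shCtcf alone in SSEA1- Thy1- cells.

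Rsf1, which pairs with SMARCA5 in the RSF complex that assembles regular nucleosome arrays, had 15 sites over chr7:97579870-97692782 and 9 SMARCA5 peaks, the most of the 10 genes. It had 12 CTCF peaks in KO ESCs and 11 in WT ESCs. KO ESCs lacked the peak at chr7:97614189-97614588 and added those at chr7:97602316-97602715 and chr7:97648753-97649152. All 3 of these sites held a SMARCA5 peak. Each was also a site of reprogramming cells: the site missing in KO ESCs and the site at chr7:97648748-97649147 were present at day 12 under shCtcf alone, and site 5 was in the shCtcf and shLuc lists of Thy1+ and SSEA1+ cells. Site 1 (chr7:97570413-97570812), outside the low-coordinate end, had the same pattern as Bptf site 13, absent from all 4 shCtcf lists of sorted cells and present in the 4 shLuc lists, the day 10 lists and both ESC lists. The site at the low-coordinate end (chr7:97579572-97580001) was in all 15 CTCF lists. Site 11 (chr7:97672834-97673233) was absent under shCtcf in SSEA1- Thy1- and day 12 cells and site 4 (chr7:97598777-97599176) in SSEA1- Thy1- cells. Site 14 (chr7:97697851-97698250) was found under shCtcf alone in SSEA1+ and day 12 cells and in no other list.

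Chrac1 and Pole3 encode the small histone-fold subunits of the CHRAC complex, and POLE3 is also a subunit of DNA polymerase epsilon. Chrac1 (chr15:73090412-73094075) had 2 sites. The site at its low-coordinate end was listed on day 10 at chr15:73090245-73090644 with added Ctcf, with and without the Smarca5 shRNA, and not with OSKM alone. In the sorted cells the same site (chr15:73090417-73090816) was found under shCtcf alone in Thy1+ cells and under shLuc alone at day 12. Both ESC lists and the SMARCA5 list held it. KO ESCs added a peak beyond the high-coordinate end (chr15:73101341-73101740), which made 2 peaks in KO and 1 in WT ESCs.

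Pole3 (chr4:62523798-62525014) is the shortest of the 10 genes and had 3 CTCF peaks in KO ESCs against 1 in WT ESCs, all 3 with a SMARCA5 peak. The added peaks were the promoter peak (chr4:62524952-62525351) and a peak outside the low-coordinate end (site 2, chr4:62519711-62520110). The peak of both ESC lists was farther out (chr4:62514106-62514505). In reprogramming cells Pole3 had 1 peak in 1 list, at site 2 under shLuc in Thy1+ cells, and it was absent under shCtcf there.

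Cecr2, the partner of the ISWI ATPases in the CERF complex and known for its role in neural tube closure, had 14 sites over chr6:120666314-120771191. It had 12 CTCF peaks in KO and 11 in WT ESCs, against between 1 and 6 in the reprogramming lists. KO ESCs added a peak inside the gene at chr6:120683103-120683502. On day 10 added Ctcf came with a peak at the low-coordinate end (chr6:120666524-120666923) that was also present with the Smarca5 shRNA, and not with OSKM alone. The site at chr6:120736515-120736925 was held by all 15 CTCF lists and the SMARCA5 list. At day 12 the shCtcf list held 3 peaks and the shLuc list 6. Sites 6 (chr6:120713958-120714357), 7 (chr6:120715169-120715568), 8 (chr6:120720451-120720850) and 11 (chr6:120753311-120753710) were absent under shCtcf at day 12, and site 5 (chr6:120700239-120700638) was present there under shCtcf alone. Site 7 was also absent under shCtcf in SSEA1- Thy1- cells. Site 14 (chr6:120780789-120781188) was absent under shCtcf in SSEA1- Thy1- and SSEA1+ cells. Site 6 was present under shCtcf alone in SSEA1- Thy1- cells and absent under shCtcf in SSEA1+ cells.

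**Figure D2:**
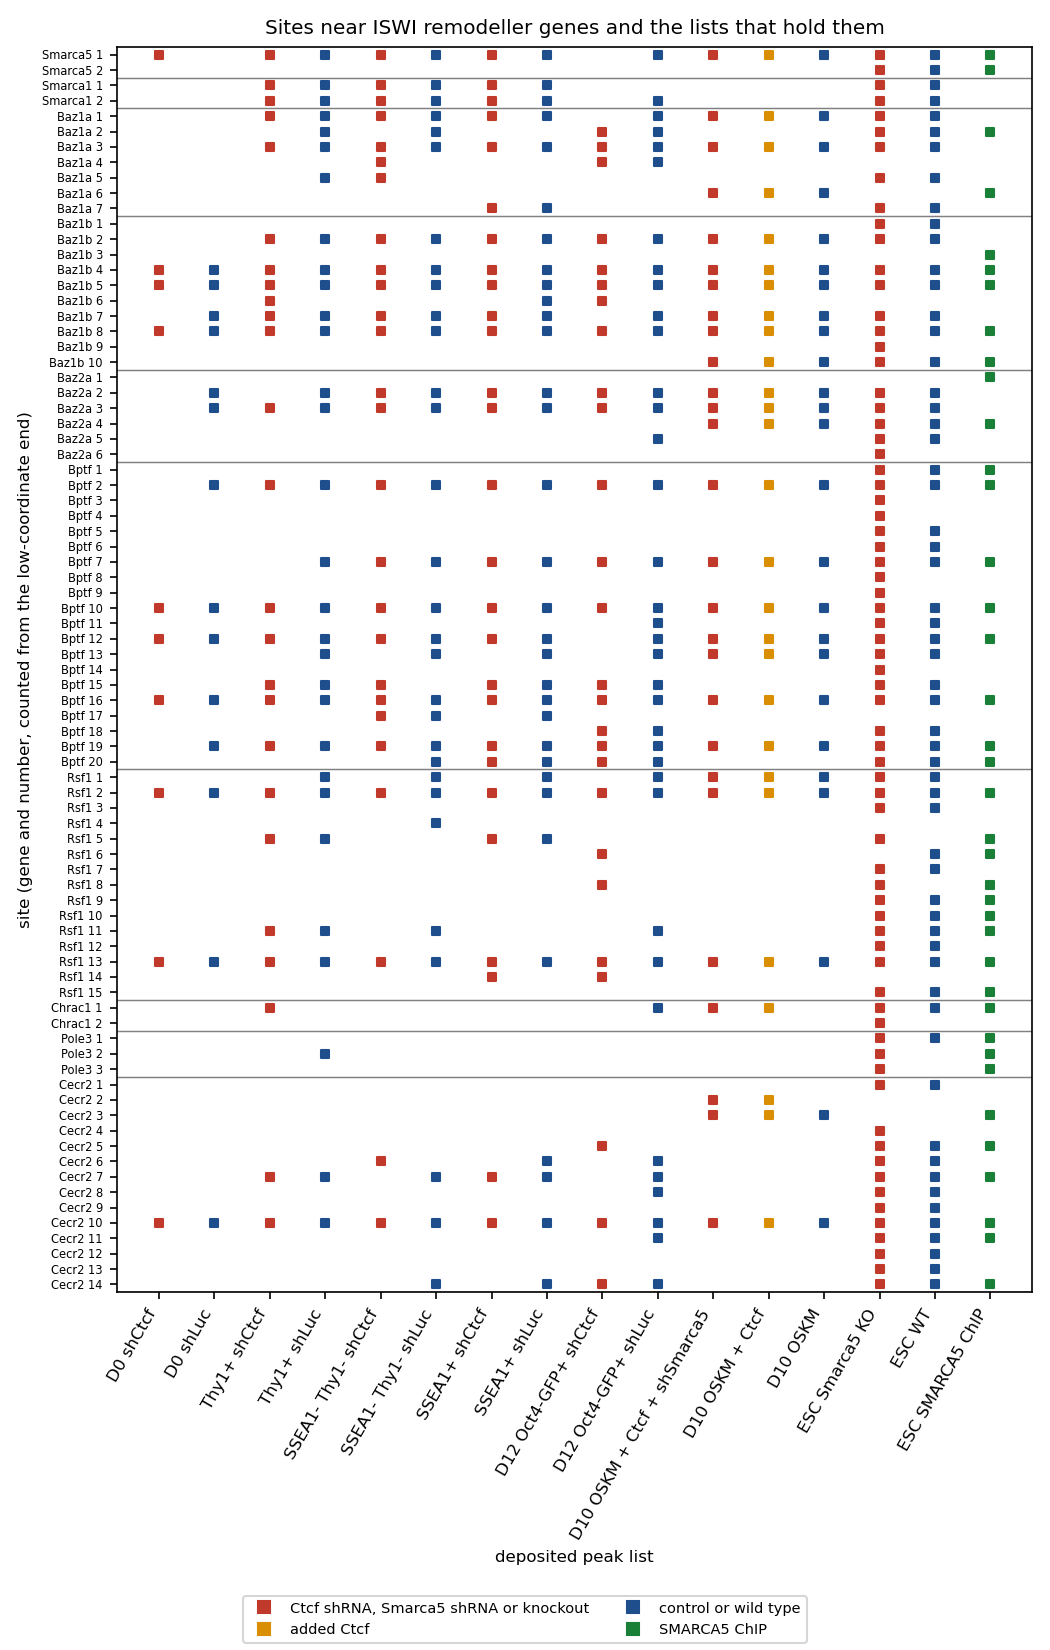
Each of the 81 sites (rows, by gene and number) and the lists that hold a peak there (columns, a square is a peak, with the perturbed list left of its control). Bptf site 13 and Rsf1 site 1 show the same alternation in the sorted lists, absent under shCtcf and present under shLuc, and 10 sites have a CTCF square in the KO ESC column only.

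The Smarca5 knockout was set against wild-type ESCs to ask which CTCF sites depend on the remodeller, and at its own family of genes CTCF peaks were added more than removed. KO ESCs kept 57 of the 58 WT peaks (98.3%, 90.8 to 100), and 1 was absent (1.72%), against 2.88% of all WT peaks. Of the 70 KO peaks 13 were found in KO ESCs only (18.6%), against 9.81% of all KO peaks. These 13 lay at 7 genes: 5 at Bptf, 2 each at Rsf1 and Pole3 and 1 each at Baz1b, Baz2a, Chrac1 and Cecr2. Smarca5, Smarca1 and Baz1a had the same peaks in both lists. Each list came from 1 ChIP sample and the KO list was longer (89567 peaks, against 83173 in WT ESCs), so a deeper KO library and a gain of sites cannot be told apart. Of 10 further ISWI partner genes (Baz2b, Rbbp4, Rbbp7, Hmgxb4, Sf3b1, Ddx21, Myo1c, Mybbp1a, Ercc6 and Dek), KO ESCs kept 62 of 65 WT peaks, and 2 of 64 KO peaks were new (3.12%). At 17 ATPase genes of other remodeller families, KO ESCs kept 110 of 116 WT peaks, and 15 of 125 KO peaks were new (12.0%).

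SMARCA5 peaks in ESCs overlapped the CTCF peaks at these genes about as often as elsewhere. Of the CTCF peaks near the 10 genes, 33 of 70 in KO ESCs (47.1%, 35.1 to 59.4; 47.7% of all KO peaks) and 30 of 58 in WT ESCs (51.7%, 38.2 to 65.0; 48.6% of all WT peaks) held a SMARCA5 peak. In the other direction 30 of the 38 SMARCA5 peaks held CTCF in WT ESCs (78.9%, 62.7 to 90.4; 86.1% of all SMARCA5 peaks). Of the 8 SMARCA5 peaks without CTCF in WT ESCs, 4 held CTCF in KO ESCs (background 47.5%), at Rsf1 sites 5 and 8 and Pole3 sites 2 and 3. They are also 4 of the 13 KO-only CTCF peaks (30.8%, 9.09 to 61.4; 35.3% of all KO-only peaks). Of the other 4 SMARCA5 peaks, those at the Baz1b promoter (chr5:135186829-135187228) and outside Baz2a (chr10:128083393-128083792) met no CTCF peak of any list, and those at Baz1a site 6 and Cecr2 site 3 met CTCF peaks of the day 10 lists only. The tagged SMARCA5 was overexpressed, and the list has no matched CTCF ChIP from the same cells.

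**Figure D3:**
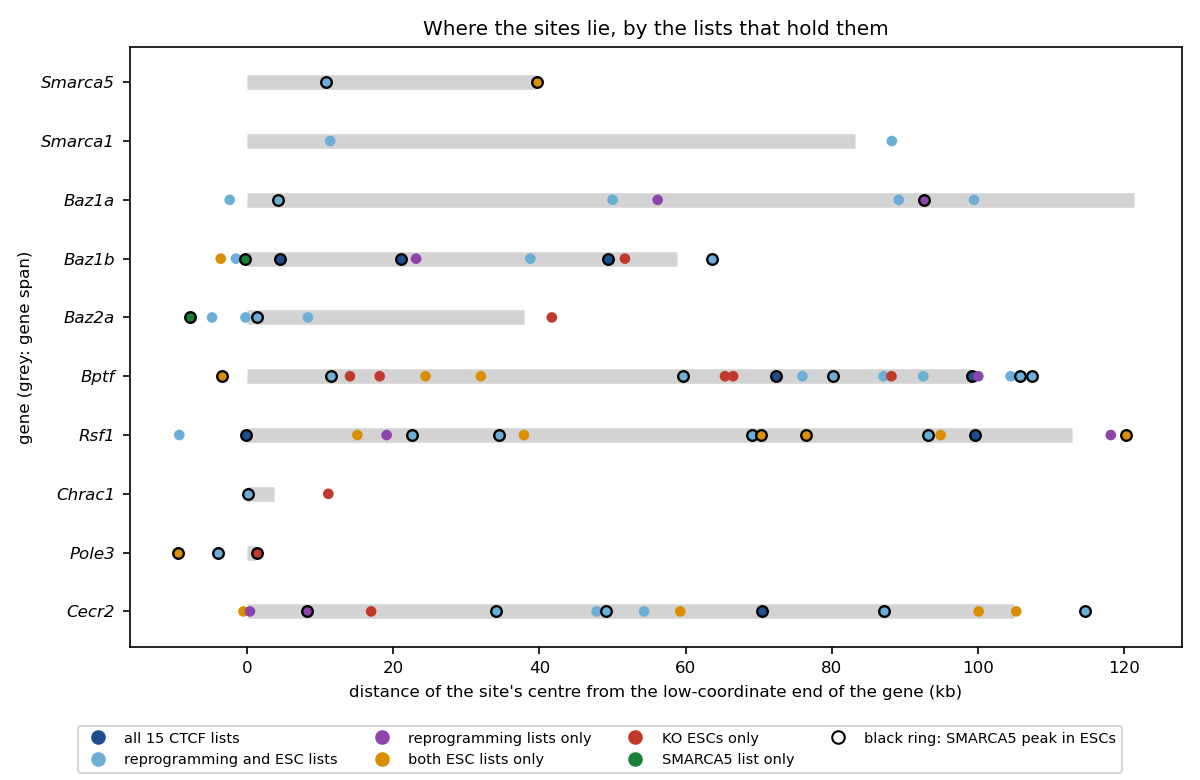
Position of the 81 sites along each gene, as the distance of the site's centre from the low-coordinate end in kb, coloured by the lists that hold it. Grey bars are gene spans and black rings mark SMARCA5 peaks. All 8 sites held by all 15 CTCF lists are ringed, and so is 1 of the 10 sites held by KO ESCs alone, at Pole3. The ringed share over all sites of these classes was not counted, so these counts are not a trait of these genes.

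Added Ctcf and the Smarca5 shRNA on day 10 were compared to ask what more CTCF does to its sites and whether SMARCA5 is needed for it. At the 10 genes the 3 lists differed by 2 peaks. With added Ctcf, 25 of 25 OSKM peaks were kept (86.3 to 100%), with 0 absent against 0.33% of all OSKM peaks. Of the 27 peaks with added Ctcf, 2 were new (7.41%), against 17.3% of all peaks with added Ctcf, 1 at Chrac1 and 1 at Cecr2. With the Smarca5 shRNA all 27 peaks with added Ctcf were kept (87.2 to 100%), 0 were absent against 1.72% of all peaks, and 0 of 27 were new against 0.542%. At the partner genes 28 of 28 OSKM peaks were kept and 11 of 39 were new with added Ctcf (28.2%), and 2 of those 39 were absent with the Smarca5 shRNA (5.13%), at Baz2b and Hmgxb4. At the ATPase genes 13 of 72 were new with added Ctcf (18.1%), and 2 of those 72 were absent with the Smarca5 shRNA (2.78%). Among the partner genes, Rbbp7, a histone chaperone of NURF and many other complexes, had 1 peak with added Ctcf and none with OSKM alone. The 3 lists have the same start position at every common peak near these genes, which can raise the overlaps.

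Of the 81 sites, 4 were in all 3 day 10 lists and none of the 10 day 0 and sorted lists (4.94%, background 1.9%). They are Baz1a site 6, Baz1b site 10, Baz2a site 4 at the promoter window inside the gene, and Cecr2 site 3. Each held a SMARCA5 peak in ESCs (39.8% of all such sites do), at Baz1a and Cecr2 only by the edges of peaks that together span 724 and 792 bp. Cecr2 site 2, in both lists with added Ctcf, was likewise in none of the 10. The day 10 cells and the sorted cells differ in vector, day and list preparation, which cannot be told apart here.

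Ctcf shRNA was set against luciferase shRNA to ask how CTCF sites respond to less CTCF. Near the ISWI genes the shCtcf lists missed between 18.8% and 41.7% of control peaks. At day 0, 9 of 14 control peaks were kept (64.3%, 35.1 to 87.2), so 35.7% were absent against 26.7% of all peaks, and 1 of 10 shCtcf peaks was new against 10.4%. In Thy1+ cells 23 of 30 were kept (76.7%, 57.7 to 90.1), with 23.3% absent against 18.9%, and 2 of 25 were new against 5.5%. In SSEA1- Thy1- cells 22 of 30 were kept (73.3%, 54.1 to 87.7), with 26.7% absent against 18%, and 4 of 26 were new against 5.73%. In SSEA1+ cells 26 of 32 were kept (81.2%, 63.6 to 92.8), with 18.8% absent against 18%, and 1 of 27 was new against 4.51%. In day 12 Oct4-GFP+ cells 21 of 36 were kept (58.3%, 40.8 to 74.5), with 41.7% absent against 41.4%, and 5 of 26 were new against 13.4%. The share of all peaks kept lies within the interval of the ISWI genes in each of the 5 populations, and the lowest shares, at day 12 and day 0, went with the shortest shCtcf lists.

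**Figure D4:**
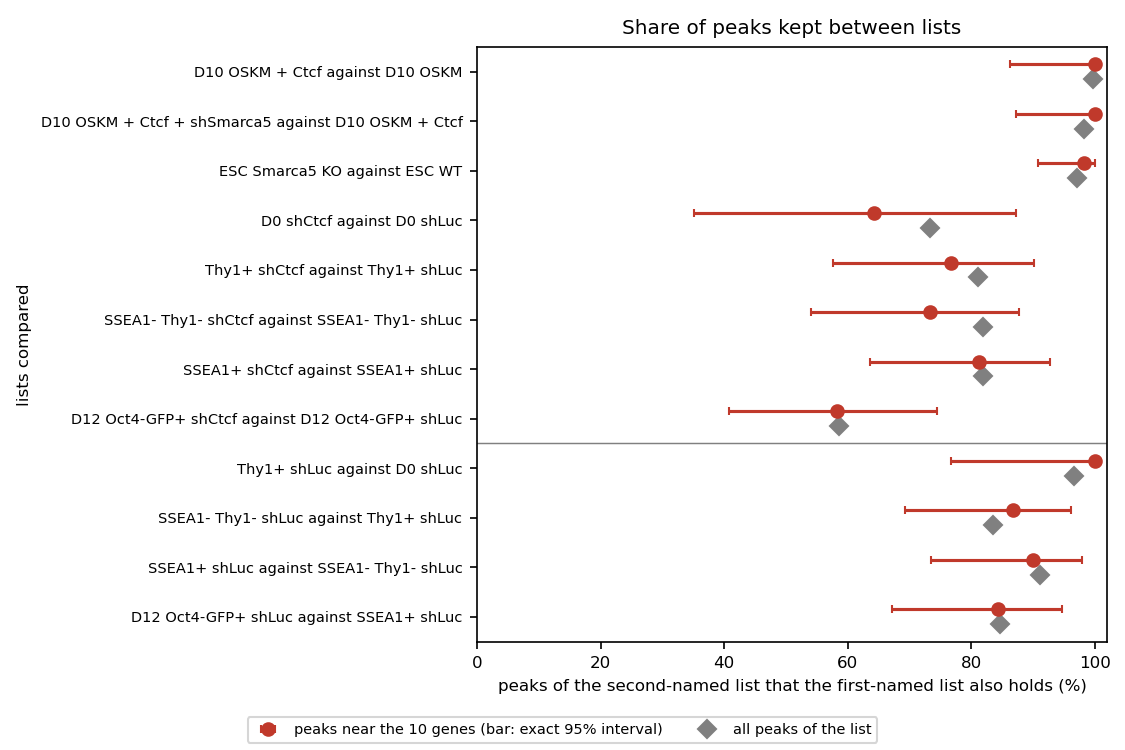
Percent of the peaks of the list named after "against" that the list named before it also holds, for peaks near the 10 genes (circles, bars are exact 95% intervals) and for all peaks (diamonds). In all 12 comparisons the diamond lies within the bar, and the day 12 pair is lowest, at 58.3% for the ISWI genes and 58.6% for all peaks.

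Seen by site, 48 of the 81 sites were in at least 1 of these 10 lists, and 14 of them (29.2%) gave the same call with and without Ctcf shRNA in all 5 populations, against 34.4% of all such sites. Those 14 include the 8 sites of all 15 lists, which had to. A further 23 sites were absent under shCtcf in at least 1 population and never the reverse (47.9%, background 48.1%). The reverse alone was seen at 6 sites (12.5%, background 9.31%), and 5 went both ways (10.4%, background 8.15%). The counts of 14, 23 and 6 sites use the Thy1+ pair and are not given without it. Of 23 sites held by all 4 control lists of sorted cells, 13 were held by all 4 shCtcf lists and 2 by none (8.70%), against 0.808% of all such sites, a count made after the pattern was seen. The 2 are Bptf site 13 and Rsf1 site 1. Neither has a SMARCA5 peak. Leaving the Thy1+ pair out could remove neither site, so it is no check of the pattern. It gave 2 of 25 sites held by the remaining 3 control lists, with no share over all sites counted.

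The day 12 lists differ at the most ISWI sites. Of the 15 peaks absent under shCtcf there, 5 were at sites with no peak in any other control list of the time course, so they could be missing under shCtcf at day 12 only. Of the other 10, 4 were absent under shCtcf in no other population (40.0%, background 48.9%): Smarca5 site 1, Smarca1 site 2, Baz1a site 1 and Bptf site 12. This count uses the Thy1+ pair and is not given without it. All 15 were CTCF sites in WT ESCs (background 91%), as were 20 of the 21 kept peaks (background 95.8%). A SMARCA5 peak was present at 6 of the 15 absent peaks (40.0%, 16.3 to 67.7; 43.8% of all absent peaks) and at 14 of the 21 kept ones (66.7%, 43.0 to 85.4; 61.6% of all kept peaks). The ISWI genes thus lie near the shares of the whole list on both counts. At day 12 the partner genes kept 20 of 45 control peaks (44.4%, 29.6 to 60), against 58.6% of all peaks. The ATPase genes of other families kept 40 of 75 there (53.3%, 41.4 to 64.9). At day 0 these ATPase genes kept 21 of 41 (51.2%, 35.1 to 67.1), against 73.3% of all peaks, and the partner genes 10 of 14 (71.4%, 41.9 to 91.6). In Thy1+, SSEA1- Thy1- and SSEA1+ cells the ATPase genes kept 85.7%, 90.2% and 82.8%, against 81.1%, 82% and 82% of all peaks. The partner genes kept 70%, 72.2% and 71.8% in these populations. Among these ATPase genes, Chd3, of the NuRD complex, had 0 peaks under shCtcf and 2 under shLuc at day 0. Chd7, which is mutated in CHARGE syndrome, and the partner gene Myo1c, a nuclear myosin of the B-WICH complex, had 1 peak under each at day 0, at different sites. Hells, a SNF2-family ATPase needed for DNA methylation, had 0 under shCtcf and 1 under shLuc in both SSEA1- Thy1- and SSEA1+ cells.

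Control lists were set in order from day 0 to day 12 to describe these genes on the path to pluripotency. The Thy1+ list pools days 3 and 9, and both SSEA1 lists pool days 6 and 9. The steps between them therefore compare sorted populations that overlap in time, not successive times of the same cells. Thy1+ cells kept 14 of 14 day 0 peaks (0 absent, background 3.39%) and added 16 of their 30 (53.3%, background 47%). Among control lists, the additions brought the first peaks to Smarca5, to Smarca1 with 2, to Baz1a with 4 and to Pole3 with 1. The Smarca5 site was already in the day 0 shCtcf list. In SSEA1- Thy1- cells 26 of the 30 Thy1+ peaks were kept, 13.3% were absent (background 16.4%) and 4 of 30 were new (13.3%, background 13.2%). In SSEA1+ cells 27 of those 30 were kept, 10.0% were absent (background 8.84%) and 5 of 32 were new (15.6%, background 10.7%). Day 12 Oct4-GFP+ cells kept 27 of the 32 SSEA1+ peaks, 15.6% were absent (background 15.4%), and 9 of their 36 were new (25.0%, background 17.1%). Of these 9, 8 were CTCF sites in WT ESCs (88.9%, 51.8 to 99.7; background 81.2%), at Baz1a, Baz2a, Bptf, Rsf1, Chrac1 and Cecr2. Rbbp4 and Rbbp7, the histone chaperones of NURF, had 4 and 2 peaks in Thy1+ cells and none at day 0, and Srcap, the ATPase that deposits H2A.Z, had 2 in Thy1+ cells and none at day 0. Chd7 had 5 peaks in Thy1+ cells, none of them at its day 0 site, and Hells had 1 in SSEA1- Thy1- and none in Thy1+ cells. With the Thy1+ list left out, SSEA1- Thy1- cells held all 14 day 0 peaks (0 absent, background 4.15%) and 16 of their 30 were new (53.3%, background 45.4%). The day 0 list was the shortest control list.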

How the data were processed

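Processed peak lists of 31 ChIP samples in 16 groups were used; the 28 input samples have no list here. The submitters' processing notes name FastQC, Trim Galore, Bowtie2, bedtools, SAMtools, Picard, MACS2, HOMER and deepTools, and build mm10 (GRCm38). How samples were pooled and peaks thresholded is not given in the sources used here. The deposited lists hold intervals of 400 bp, and the authors' score is 0 in every line, so peaks could not be ranked. The sorted, day 10 and ESC lists each share start positions within their set, which can raise overlaps.

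Peaks within 10000 bp of a RefSeq gene span were assigned to it. A peak was kept when it overlapped by at least 1 bp, and overlapping peaks of all lists were joined into sites. Lists were compared without tests, beside the same share over all peaks. The 10 genes and the side lists (10 ISWI partner genes and 17 other remodeller ATPases) were chosen with earlier results of these data known. All 10 genes, every site that differs in a perturbation, up to 1 constant site per gene, up to 4 side-list genes per comparison and the 3 genes most like each ATPase gene were named. On simulated lists built from the WT ESC list (83173 peaks), all 82236 isolated peaks were called right, and 74.9% planted as kept was recovered as 74.9%. Kept peaks were moved by less than their width and new peaks set well apart from all others. The simulation therefore checks the code alone and gives no error rate for these lists. Alternatives were the flank, the overlap rule, the joining rule and the nearest gene only. Exons, introns and genome sequence were not used here. Python 3.11.15, NumPy 2.4.6, pandas 2.3.3, SciPy 1.17.1 and matplotlib 3.10.9 were used.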

Additional observations from a re-analysis of the deposited data

Results flagged for a closer look

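At 5 of 48 sites the lists with Ctcf shRNA differed from their controls in opposite directions in different populations. This is 10.4%, near the 8.15% of all such sites. None of these differences was tested, since each group has 1 list. Smarca5 site 1 (chr8:80710580-80711052) changed in 2 populations, absent under shCtcf at day 12 and present under shCtcf alone at day 0. Baz1a site 5 (chr12:54981954-54982367) changed in 2, absent under shCtcf in Thy1+ cells and present under shCtcf alone in SSEA1- Thy1- cells. Baz1b site 6 (chr5:135210258-135210657) changed in 3, present under shCtcf alone in Thy1+ and day 12 cells and absent under shCtcf in SSEA1+ cells. Chrac1 site 1 (chr15:73090245-73090816) changed in 2, present under shCtcf alone in Thy1+ cells and absent under shCtcf at day 12. Cecr2 site 6 (chr6:120713958-120714357) changed in 3, present under shCtcf alone in SSEA1- Thy1- cells and absent under shCtcf in SSEA1+ and day 12 cells. Without the Thy1+ pair, whose day 3 labels conflict, 3 of the 5 remain: Smarca5 site 1, Baz1b site 6 and Cecr2 site 6. For this smaller count no share over all sites was taken. The lists carry no signal, so how near these sites lay to the authors' threshold was not tested.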

How the results depend on the processing

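All 12 kept shares stayed within their intervals under each of 6 alternatives: no flank, a flank of 2500 bp or 50000 bp, the nearest gene only, a reciprocal overlap of 50%, and leaving out Bptf, the gene with the most peaks. The reciprocal overlap could change only the comparisons with a day 0 list. In the others, common peaks near these genes have the same start position in both lists. The 81 sites became 83 when joined by centres within 200 bp and 81 when gaps up to 200 bp were joined. A flank of 50000 bp, which takes in neighbouring genes, raised the number of peaks in every list. It gave 25 peaks with shCtcf and 32 with shLuc at day 0, 56 and 66 in Thy1+ cells, 57 and 66 in SSEA1- Thy1- cells, 58 and 68 in SSEA1+ cells, and 49 and 82 at day 12. On day 10 it gave 61 with added Ctcf and Smarca5 shRNA, 62 with added Ctcf and 50 with OSKM, and in ESCs 139 in KO, 124 in WT and 74 for SMARCA5. Leaving out the Thy1+ pair, an alternative chosen after seeing the data, lowered the sites that changed in both directions to 3, against 5. In all, 128 of 145 alternative values were called the same and 17 moved. A count was called the same when it changed by no more than a factor of 1.5, and a kept share when it stayed within its interval. Counts called the same could thus differ: with no flank they fell in 15 of 16 lists, in KO ESCs from 70 to 50. No paired analysis was possible because each group has 1 list and no test was run. Replicates could not be left out for the same reason, and a stricter peak threshold could not be tried because every score is 0. Depth is unknown, so a peak missing from a list is a peak not called, and partial loss of binding cannot be seen.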
